A study of Solanum lycopersicum with 48 samples.

Results

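A run of neighbouring tomato loci on chromosome 6, with locus numbers from Solyc06g008310 to Solyc06g008970, was followed in roots and leaves of 2 cultivars. The deposited table listed 63 loci in this range. Of these, 48 reached at least 1 FPKM (fragments per kilobase of a gene model, relative to the library's total of mapped fragments) in at least 3 of the 48 libraries, and these 48 loci are the members described here. They stand among 22117 rows that met the same FPKM rule and 29898 rows in all. The run was chosen by the measured difference in FPKM between the cultivars, so every level compared between cultivars is given as a description, with no test. Tests were made on nitrogen supply, on day and on organ within a cultivar, contrasts that did not choose the run. The interaction of cultivar and nitrogen level was fitted as well, and is given as a description.

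The cultivars are named Guizhen No.1 and Guozhen No.1 in the labels, written Guizhen and Guozhen here. The labels name no transgene, mutation or other agent in either. All plants were raised in a growth chamber without soil, with their roots in Hoagland nutrient solution that held 9 mM nitrogen (normal) or 1 mM nitrogen (low). Roots and leaves were collected at day 1 and day 7, with no event given in the labels as the start of the count. This design gives 16 groups, and every group had 3 libraries. Because the labels do not say that these came from separate plants, the p-values below measure the spread between samples, which may be technical.

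Tomato locus numbers run along a chromosome, so that loci with adjacent numbers are neighbours, and neighbours tend to be inherited together. Tomato chromosome 6 is known for the Mi-1 genes, a cluster of intracellular immune receptors of the nucleotide-binding, leucine-rich repeat class. A gene of that cluster, bred into tomato from a wild relative, gives resistance to root-knot nematodes. The RefSeq gene table of assembly SLM_r2.1 lists 7 Mi-1 entries on chromosome 6, but it shared no identifier with the deposited table. Whether any locus of the run is a Mi-1 gene was therefore not determined, and no role is given to any locus below. If near-identical copies stand in the run, the assignment of reads among them could shift the FPKM of a single locus, and this was not tested.

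All 48 libraries correlated best with a library of their own organ. The FPKM of a library summed to between 577123 and 689680. Libraries held 16983 to 18640 genes at 1 FPKM or more. Read depth is unknown, so that no counting error could be attached to low values, and an exact 0 may be a failed estimate. The members summed to a median of 609.9 FPKM in Guizhen root, 550.5 in Guozhen root, 599.6 in Guizhen leaf and 465 in Guozhen leaf, each over 12 libraries. Fewer cells of a type and less RNA per cell cannot be told apart in such whole organs. Of the 48 members, 26 reached 1 FPKM in all 48 libraries.

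The cultivars were first set beside each other in each of the 8 combinations of organ, day and nitrogen level. A member was counted as separated where the 3 Guozhen libraries did not overlap the 3 Guizhen libraries and the means of log2(FPKM + 1) lay at least 1 apart. The same count over all genes that passed the filter in that organ (at least 1 FPKM in 3 of its 24 libraries) is given as the background. In root, 44 members passed that filter. At day 1, 10 of them were separated at normal nitrogen, where the background was 1.79% of 20435 genes, and 8 at low nitrogen, where it was 1.17%. At day 7, 12 were separated at normal nitrogen against a background of 1.23%, and 10 at low nitrogen against 2.88%. In leaf, where 47 members passed, the day 1 counts were 13 at normal nitrogen (background 2.86% of 19815 genes) and 12 at low nitrogen (1.76%). At day 7 they were 9 at normal nitrogen (1.19%) and 12 at low nitrogen (1.8%). Since this contrast chose the run, nothing is read from these counts against the background. Across all 8 combinations, 22 members were separated in at least 1, and the other 26 in none. The same count over all genes was not made. Of the 22, 13 were lower in Guozhen wherever they were separated, 6 were higher, and 3 (Solyc06g008400, Solyc06g008450 and Solyc06g008920) were separated in both directions.

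**Figure D1:**
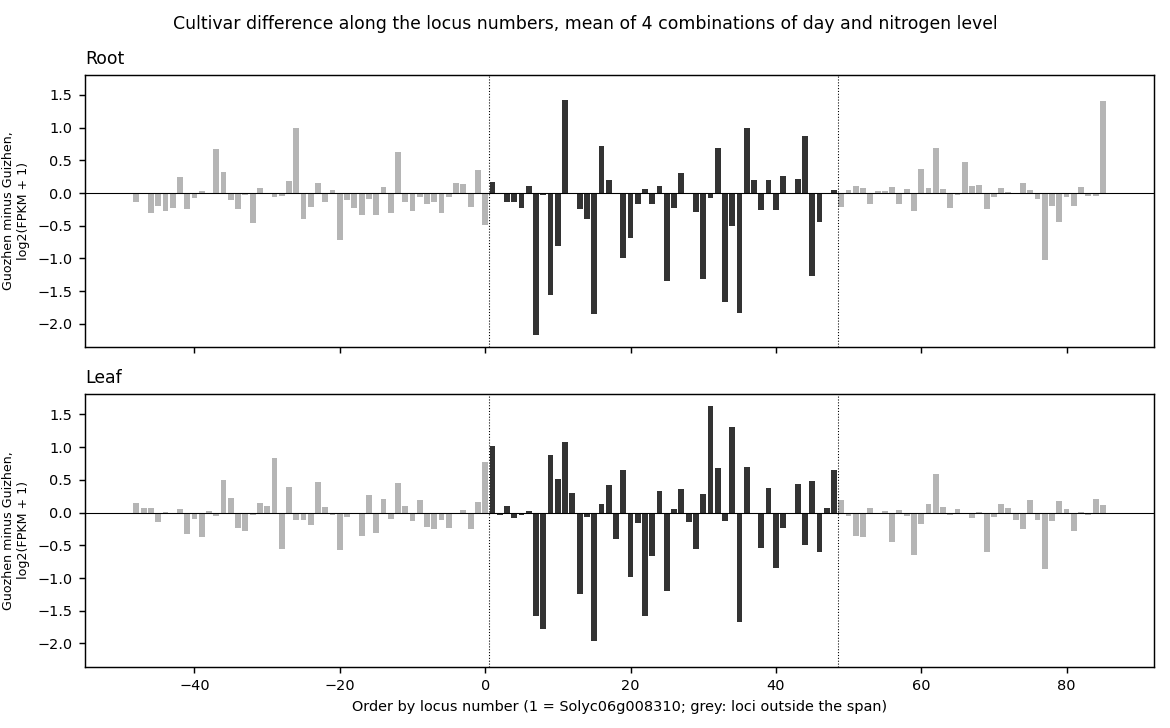
Mean difference between the cultivars (Guozhen minus Guizhen, log2(FPKM + 1), mean of the 4 combinations of day and nitrogen level) for each locus in order of locus number, in root (top) and leaf (bottom). Dark bars are the 48 members and grey bars the 49 loci before and 37 loci after them under the same FPKM rule. In either organ, 15 members, 1 locus before and 2 loci after lie at least 1 from zero. That count was not made over all genes and the cultivar gap chose the run, so nothing is read from it.

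The differences did not run evenly along the locus numbers. From Solyc06g008320 to Solyc06g008360, 5 successive members differed little between cultivars, with mean differences between -0.24 and 0.11 on the log2(FPKM + 1) scale in either organ. After them, large differences set in at Solyc06g008370, and loci of opposite direction stood near each other from there on. For example, Solyc06g008480 was higher in Guozhen, while Solyc06g008500 and Solyc06g008520 were lower. The median absolute difference was 0.25 in root and 0.50 in leaf over the members. It was 0.18 and 0.15 over the 49 loci from Solyc06g007640 to Solyc06g008300, and 0.10 and 0.12 over the 37 loci from Solyc06g008980 to Solyc06g009640. The plot along the locus numbers shows these flanks beside the run. Because the cultivar gap chose the run, nothing is read from its medians against those of the flanks.

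At the edges the FPKM of the members and of their outer neighbours were as follows. Ranges and medians here pool the 12 libraries of a cultivar and organ, so that they overlap more easily than single combinations do. Solyc06g008310, the first member, lay between 5.79 and 10.6 FPKM in Guizhen root and between 5.14 and 12.1 in Guozhen root, so that the roots overlapped. In leaf it lay between 3.65 and 8.67 FPKM in Guizhen and between 5.89 and 27.6 in Guozhen. Its next neighbour outside, Solyc06g008300, ranged from 0.97 to 47.2 FPKM in Guozhen leaf and from 0.98 to 10.04 in Guizhen leaf. In root it ranged from 0.228 to 0.938 FPKM in Guizhen, with a median of 0.590, and from 0.00163 to 0.321 in Guozhen, with a median of 0.083, so that its ranges overlapped little. The following loci outward, Solyc06g008290 and Solyc06g008260, had overlapping ranges between cultivars in both organs. Solyc06g008970, the last member, had medians of 5.31 FPKM in Guozhen root and 5.43 in Guizhen root, and of 6.68 in Guozhen leaf and 3.61 in Guizhen leaf. Beyond it, Solyc06g008980, Solyc06g009010 and Solyc06g009020 had overlapping ranges in both organs.

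A stable difference was described by the members whose cultivars stood apart, without overlap and in the same direction, in all 8 combinations. There were 8 such members of 48 (16.7%), and the background over all 22117 genes was 0.402%, or 89 genes. None of the 49 loci before the run and none of the 37 after it did so, and 5 of the other 1847 chromosome 6 loci did (0.271%). Chromosome 9 held more such loci than chromosome 6, with 25 of 1552 (1.61%). Since the cultivar gap chose the run, nothing is read from its share against the background or the loci on either side. Guozhen was lower in 6 of the 8 members, namely Solyc06g008370, Solyc06g008500, Solyc06g008520, Solyc06g008600, Solyc06g008710 and Solyc06g008810. Guozhen was higher in Solyc06g008480 and Solyc06g008820. Solyc06g008370 and Solyc06g008710 reached 1 FPKM only in Guizhen libraries, and Solyc06g008480 only in Guozhen libraries. These loci met the FPKM rule only through the cultivar where they are high, so that the filter favoured a gap in them. The same holds for Solyc06g008390 (Guizhen) and Solyc06g008780 (Guozhen), described further on.

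Solyc06g008370 was expressed in Guizhen and nearly absent from the Guozhen libraries. In Guizhen root its FPKM ran from 1.72 to 5.65 with a median of 3.69. In Guizhen leaf it ran from 0.388 to 7.36 with a median of 2.1. In Guozhen it was listed at 0 in 11 of 12 root libraries and in 11 of 12 leaf libraries, with 0.0856 and 0.138 FPKM in the remaining library of each organ. No fold change is given against libraries listed at 0.

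Solyc06g008520 was the most abundant of the members lower in Guozhen throughout. Its FPKM ran from 24.1 to 60.4 in Guizhen root with a median of 33.8, and from 6.48 to 13.8 in Guozhen root with a median of 9.00. In leaf it ran from 17.5 to 34.5 in Guizhen with a median of 26.2, and from 3.74 to 10.04 in Guozhen with a median of 5.46. The ranges of all 12 libraries were apart in both organs. The Guizhen group mean was 2.71 to 6.19 times the Guozhen mean in the 4 root combinations and 3.73 to 5.70 times in the 4 leaf combinations. Solyc06g008810 showed a similar gap at a lower level, with medians of 7.00 FPKM in Guizhen root against 1.06 in Guozhen root, and 6.68 in Guizhen leaf against 1.36 in Guozhen leaf. For both loci the cultivars were also separated by at least 1 on the log2(FPKM + 1) scale in all 8 combinations.

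Solyc06g008710 was a low locus in Guizhen and lower still in Guozhen. Its FPKM ran from 1.21 to 2.16 in Guizhen root and from 0.0279 to 0.236 in Guozhen root. In leaf it ran from 0.783 to 1.99 in Guizhen, and it did not exceed 0.0526 in Guozhen, where 3 of 12 libraries were listed at 0. Solyc06g008600 was expressed at similar strength in both organs, with medians of 7.95 FPKM in Guizhen root, 4.99 in Guozhen root, 12.1 in Guizhen leaf and 5.33 in Guozhen leaf. When the 4 combinations were pooled, its ranges overlapped in both organs. The highest Guozhen library stood above the lowest Guizhen library in root (6.75 and 6.59) and in leaf (8.07 and 6.86). Solyc06g008500 was mainly a leaf locus, with medians of 8.15 FPKM in Guizhen leaf and 2.22 in Guozhen leaf. In root its medians were 0.227 FPKM in Guizhen and 0.052 in Guozhen, so that the root difference was one of very low levels.

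Solyc06g008480 was the reverse of Solyc06g008370. In Guozhen its FPKM ran from 1.11 to 3.36 in root and from 0.295 to 1.90 in leaf. In Guizhen root it ran from 0.0584 to 0.178, and the Guozhen group mean was 14.8 to 28.1 times the Guizhen mean. In Guizhen leaf it was listed at 0 in 8 of 12 libraries and did not exceed 0.019. Solyc06g008820 was expressed in both cultivars. Its Guozhen group mean was 2.16 to 2.99 times the Guizhen mean in root, with medians of 5.72 and 2.50 FPKM, and 1.65 to 2.23 times in leaf, with medians of 3.30 and 1.61.

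**Figure D2:**
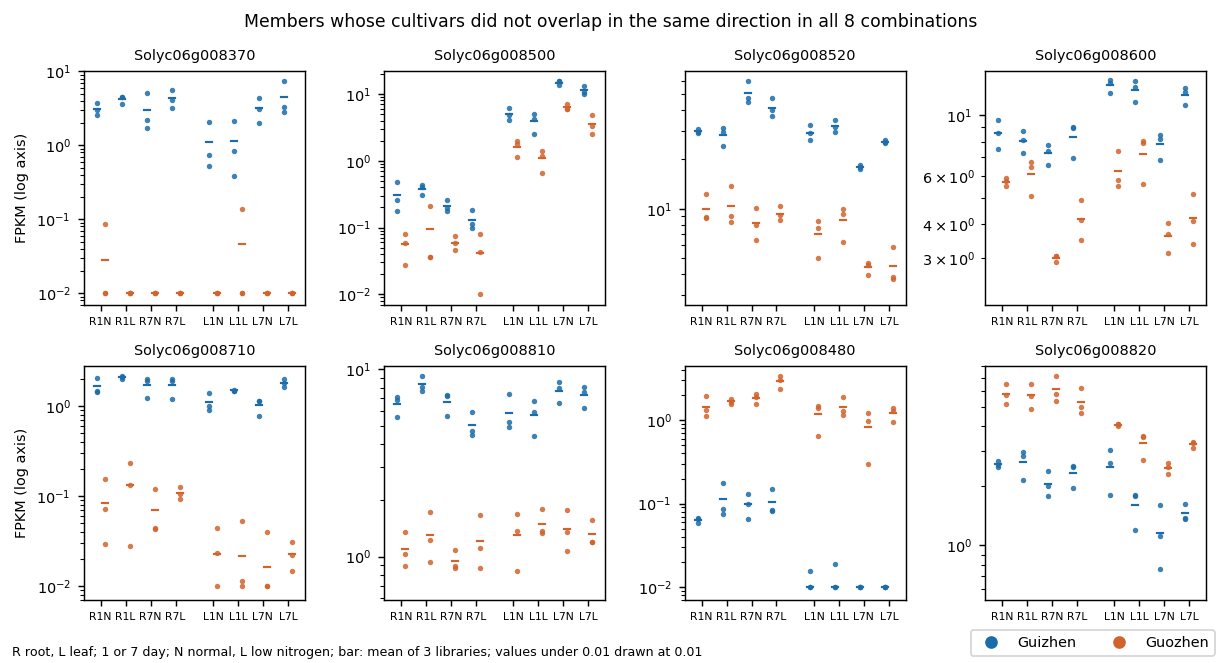
FPKM (log axis) of the 8 members whose cultivars stood apart in the same direction in all 8 combinations, with 1 point per library, a bar at the mean of 3 libraries, Guizhen in blue and Guozhen in orange; values under 0.01 are drawn at 0.01. Solyc06g008480 and Solyc06g008820 lie higher in Guozhen, and the other 6 lie higher in Guizhen, in root (R) and leaf (L), at day 1 and 7, at normal (N) and low (L) nitrogen.

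In a further group of members the cultivar gap depended on the organ. Solyc06g008400 did not overlap in any of the 8 combinations, but Guozhen was lower in root and higher in leaf. In Guizhen root at normal nitrogen its FPKM was 5.42, 5.67 and 5.71 at day 1 and 10.3, 9.63 and 7.49 at day 7. In Guozhen root the corresponding values were 1.34, 2.06 and 1.53, then 2.09, 2.39 and 1.72. In Guizhen leaf no library exceeded 0.0796 FPKM, while Guozhen leaf lay between 0.307 and 1.42. The locus was thus measured almost wholly in root in Guizhen and in both organs in Guozhen.

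Solyc06g008770 and Solyc06g008800 had leaf differences with overlapping or closer roots. Solyc06g008770 lay between 4.89 and 8.25 FPKM in Guizhen root and between 3.28 and 8.08 in Guozhen root, with overlap in each of the 4 combinations. In leaf it lay between 0.0909 and 0.744 in Guizhen and between 1.71 and 4.24 in Guozhen. The Guozhen leaf mean was 4.44 to 21.8 times the Guizhen leaf mean. Solyc06g008800 lay between 0.0773 and 0.948 FPKM in Guizhen leaf and between 1.41 and 3.05 in Guozhen leaf, with group means 4.99 to 12 times higher in Guozhen. In root its medians were 7.18 FPKM in Guizhen and 4.42 in Guozhen. In both loci, leaf was far below root in Guizhen and closer to root in Guozhen.

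The gap stood in all 4 root combinations, and not in all 4 leaf combinations, in Solyc06g008790, Solyc06g008760 and Solyc06g008590. Solyc06g008790 lay between 4.39 and 9.60 FPKM in Guizhen root and between 0.842 and 2.25 in Guozhen root, a ratio of group means of 4.58 to 5.38. In leaf its medians were 0.624 and 0.449 FPKM. Solyc06g008760 had root medians of 23.7 FPKM in Guizhen and 9.23 in Guozhen, while its leaf medians were 49.8 and 59.1. Solyc06g008590 had root medians of 4.07 FPKM in Guizhen and 1.48 in Guozhen, and leaf medians of 1.37 and 2.49. Its leaf gap ran the other way at day 1, without overlap, with means of 0.662 ± 0.537 FPKM in Guizhen and 2.03 ± 0.437 in Guozhen at normal nitrogen (SD, n = 3), and of 0.586 ± 0.464 and 1.62 ± 0.529 at low nitrogen. The Guozhen over Guizhen ratio of leaf means was 1.23 to 3.07, beside a Guizhen over Guozhen ratio of 2.38 to 3.16 in root. All 3 were lower in Guozhen root in each of the 4 root combinations without overlap.

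Apart from the 9 members without overlap in all 8 combinations, 11 members did not overlap in any of the 4 leaf combinations, and their roots overlapped in at least 1 combination. Guozhen leaf was higher in 7 of them (Solyc06g008310, Solyc06g008490, Solyc06g008770, Solyc06g008800, Solyc06g008860, Solyc06g008900 and Solyc06g008970) and lower in 4 (Solyc06g008390, Solyc06g008620, Solyc06g008690 and Solyc06g008870). Solyc06g008390 was measured in Guizhen leaf alone, at 1.15 to 5.69 FPKM. It was listed at 0 in 10 of 12 Guozhen leaf libraries, and no root library of either cultivar exceeded 0.143 FPKM. Solyc06g008870, the most abundant root member, had root medians of 74.1 FPKM in Guizhen and 64.2 in Guozhen, and leaf medians of 26.8 and 13.9. The remaining 25 members overlapped in at least 1 combination of each organ. Among them, Solyc06g008340 and Solyc06g008890 overlapped in every combination, as did 5408 of all 22117 genes. The counts by organ were not made over all genes, so nothing is read from them.

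**Figure D3:**
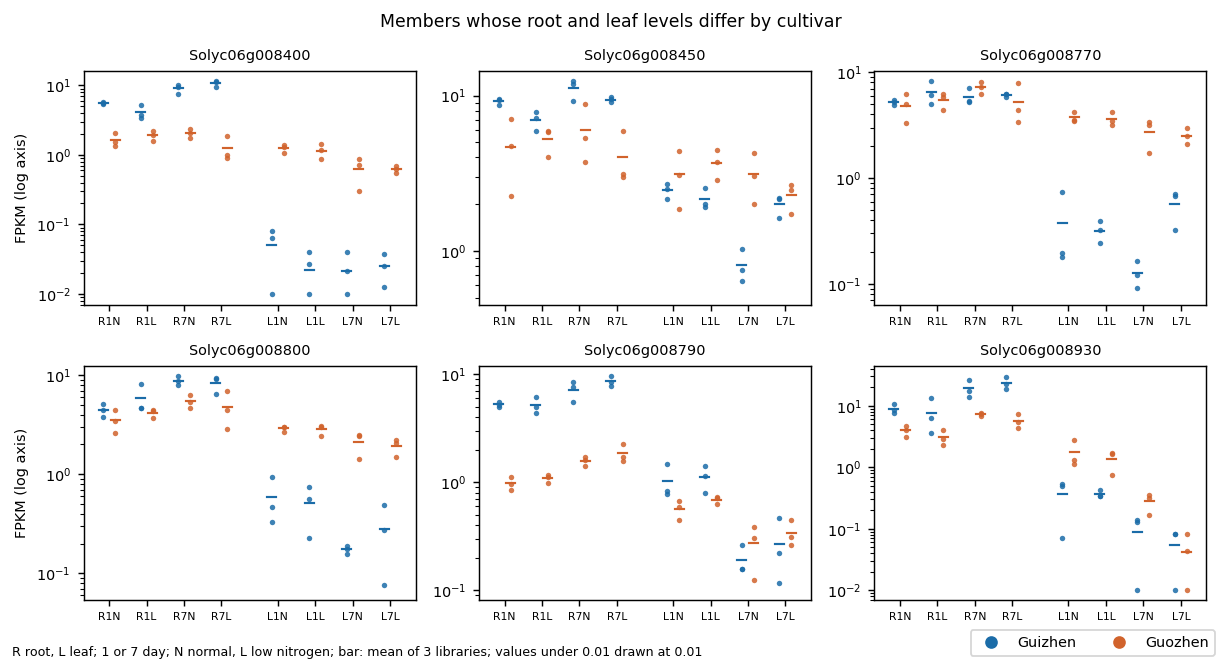
FPKM (log axis) of 6 members whose cultivar gap differs between root (R) and leaf (L), with 1 point per library and a bar at the mean of 3 libraries, Guizhen in blue and Guozhen in orange, values under 0.01 drawn at 0.01. In Solyc06g008400 Guozhen lies below Guizhen in root and above it in leaf; in Solyc06g008770 and Solyc06g008800 the gap stands in leaf, and in Solyc06g008790 in root.

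The threshold of 1 FPKM in 3 libraries left 15 listed loci out. Just inside it stood Solyc06g008780, which reached 1 FPKM in 4 of 48 libraries, and Solyc06g008840, which reached it in 5. Just outside stood Solyc06g008440, which reached it in 2 libraries and whose value at rank 3 from the top was 0.9993 FPKM, and Solyc06g008430, which reached it in 1 library and whose value at rank 3 was 0.7333. Solyc06g008430 ranged from 0.0749 to 1.29 FPKM in Guizhen root and was listed at 0 in all 24 Guozhen libraries. Solyc06g008780 ran the other way, with a median of 0.730 FPKM in Guozhen root against 0.0374 in Guizhen root, and 0.721 in Guozhen leaf against 0.011 in Guizhen leaf.

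The organs were compared at day 7 and normal nitrogen with limma over 22117 genes. In Guizhen, 33 of the 48 members passed the test (Benjamini-Hochberg adjusted p below 0.05), 26 of them higher and 7 lower in root. The background was 73.2% of all genes, with 53.2% higher and 20% lower. In Guozhen, 35 members passed, 26 higher and 9 lower, beside 73.5% of all genes, with 52.8% higher and 20.7% lower. The shares of members called, 68.8% and 72.9%, were close to the background. The median of all genes was itself shifted towards root by 0.51 on the log2(FPKM + 1) scale in Guizhen and by 0.51 in Guozhen. After median-of-ratios scaling these shifts were 0.05 and 0.06, and the calls were 13 higher with 15 lower for Guizhen, and 17 higher with 16 lower for Guozhen.

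Of the 48 members, 5 met the rule within 1 organ alone, so that the filter favoured an organ difference in them. Not all of them differed, as Solyc06g008780 had Guozhen medians of 0.730 FPKM in root and 0.721 in leaf. These 5 members make up 3 of the lower calls in Guizhen, and 2 lower and 1 higher call in Guozhen. Solyc06g008500, at 0.473 FPKM or less in every root library, is among them and its organ test is not read.

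Solyc06g008870 and Solyc06g008930 had large organ differences in both cultivars. At day 7 and normal nitrogen, Solyc06g008870 had 77.7, 82.5 and 80.0 FPKM in Guizhen root and 5.42, 5.15 and 3.87 in Guizhen leaf. Root was higher by 3.81 (SE 0.19, limma adjusted p 2.02e-19) in Guizhen and by 4.45 (SE 0.19, limma adjusted p 2.2e-21) in Guozhen. Solyc06g008930 was higher in root by 4.17 (SE 0.26) in Guizhen and by 2.69 (SE 0.26) in Guozhen, with limma adjusted p of 1.57e-16 and 1.83e-11. These differences exceed the shift of all genes.

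For the members with an organ-dependent cultivar gap, each cultivar's own organ test stood as follows. Solyc06g008400 was higher in root by 3.30 (SE 0.14) in Guizhen and by 0.92 (SE 0.14) in Guozhen. Solyc06g008770 was higher in root by 2.60 (SE 0.21) in Guizhen and by 1.15 (SE 0.21) in Guozhen. Solyc06g008800 was higher in root by 3.06 (SE 0.21) in Guizhen and by 1.07 (SE 0.21) in Guozhen, and Solyc06g008790 by 2.77 (SE 0.14) and 1.02 (SE 0.14). All of these passed the limma test, with adjusted p of at most 2.02e-05. These members were picked for a cultivar gap that differed by organ in the same libraries, so nothing further is read from these p-values. The median of all genes was itself shifted towards root by 0.51 in each cultivar, and the differences above were not corrected for that shift. The difference of the organ contrast between cultivars was not tested, because the cultivar gap chose the run.

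Time was examined by comparing day 7 with day 1 at normal nitrogen within each cultivar and organ. In Guizhen root, 17 of 44 members passed the limma test, 10 higher and 7 lower at day 7, beside 45.7% of all genes (21.4% higher, 24.3% lower). In Guozhen root, 18 members passed, 10 higher and 8 lower, beside 48.6% of all genes (22.7% higher, 25.9% lower), and 9 members passed in both cultivars. In Guizhen leaf, 26 of 47 members passed, 6 higher and 20 lower, beside 59.8% of all genes (17.4% higher, 42.4% lower). In Guozhen leaf, 25 passed, 5 higher and 20 lower, beside 61.6% of all genes (13.6% higher, 48% lower), and 19 members passed in both. Calls shared by both cultivars were not counted over all genes, so nothing is read from the 9 and the 19. The median of all genes fell by 0.29 in Guizhen leaf and by 0.40 in Guozhen leaf. After median-of-ratios scaling these medians were near 0, and the leaf calls were 12 higher with 11 lower for Guizhen, and 11 higher with 13 lower for Guozhen.

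Solyc06g008620 had the largest change with day of all members, in both organs. At normal nitrogen, Guizhen leaf had 184, 267 and 125 FPKM at day 1 and 3.27, 7.36 and 3.45 at day 7. Guozhen leaf had 46.6, 63.6 and 36.5 FPKM at day 1 and 0.468, 0.976 and 1.39 at day 7. On the log2(FPKM + 1) scale the locus fell by 5.09 (SE 0.44, limma adjusted p 1.77e-08) in Guizhen leaf and by 4.68 (SE 0.44, limma adjusted p 6.46e-08) in Guozhen leaf. In root it fell by 2.94 (SE 0.42, limma adjusted p 1.71e-05) in Guizhen and by 3.25 (SE 0.42, limma adjusted p 4.88e-06) in Guozhen. All day 1 libraries were above all day 7 libraries in each of these contrasts. The replicates within a day were wide, as in Guizhen root at day 1, where they were 199.6, 115 and 47.3 FPKM.

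Solyc06g008870 fell with day in leaf and held a high level in root. In leaf it fell by 3.01 (SE 0.25, limma adjusted p 9.78e-09) in Guizhen and by 3.33 (SE 0.25, limma adjusted p 3.84e-09) in Guozhen. Its root FPKM at normal nitrogen was 65.4 to 74.0 at day 1 and 77.7 to 82.5 at day 7 in Guizhen, and the root change did not pass the test in either cultivar.

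Solyc06g008920 moved in opposite directions in the organs. In root it rose from 18.4, 16.2 and 22.9 FPKM to 36.7, 35.8 and 32.5 in Guizhen, which is a log2 rise of 0.85 (SE 0.23, limma adjusted p 0.00504). In Guozhen root it rose from 27.1, 34.6 and 20.2 to 62.8, 85.5 and 66.3, which is 1.38 (SE 0.23, limma adjusted p 6.78e-05). In leaf it fell by 2.62 (SE 0.21, limma adjusted p 7.65e-09) in Guizhen, from 33.1, 44.4 and 39.98 FPKM to 5.91, 5.97 and 4.71. In Guozhen leaf it fell by 0.93 (SE 0.21, limma adjusted p 0.000834), from 16.5, 16.8 and 14.9 to 6.38, 9.90 and 7.96. At normal nitrogen, Guozhen leaf was thus below Guizhen leaf at day 1 and above it at day 7, without overlap at either day.

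Solyc06g008500 rose in leaf at day 7, by 1.41 (SE 0.22) in Guizhen and 1.5 (SE 0.22) in Guozhen, with limma adjusted p of 1.85e-05 and 9.45e-06. Solyc06g008310 fell in Guozhen leaf from 24.04, 27.6 and 21.2 FPKM at day 1 to 6.49, 8.001 and 9.57 at day 7, by 1.49 (SE 0.15, limma adjusted p 1.82e-07). In Guizhen leaf, where it started at 7.47, 8.46 and 8.67 FPKM, it fell by 0.67 (SE 0.15, limma adjusted p 0.00087). Solyc06g008940 fell in both roots, by 0.88 and 1.02 (SE 0.16 each), with limma adjusted p of 0.000267 and 5.43e-05. Solyc06g008750 rose in root by 1.29 (SE 0.38, limma adjusted p 0.00963) in Guizhen and by 1.31 (SE 0.38, limma adjusted p 0.00789) in Guozhen. The Guizhen root call was lost without day 7 replicate 2 (adjusted p 0.0577) or without day 1 replicate 3 (0.067).

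**Figure D4:**
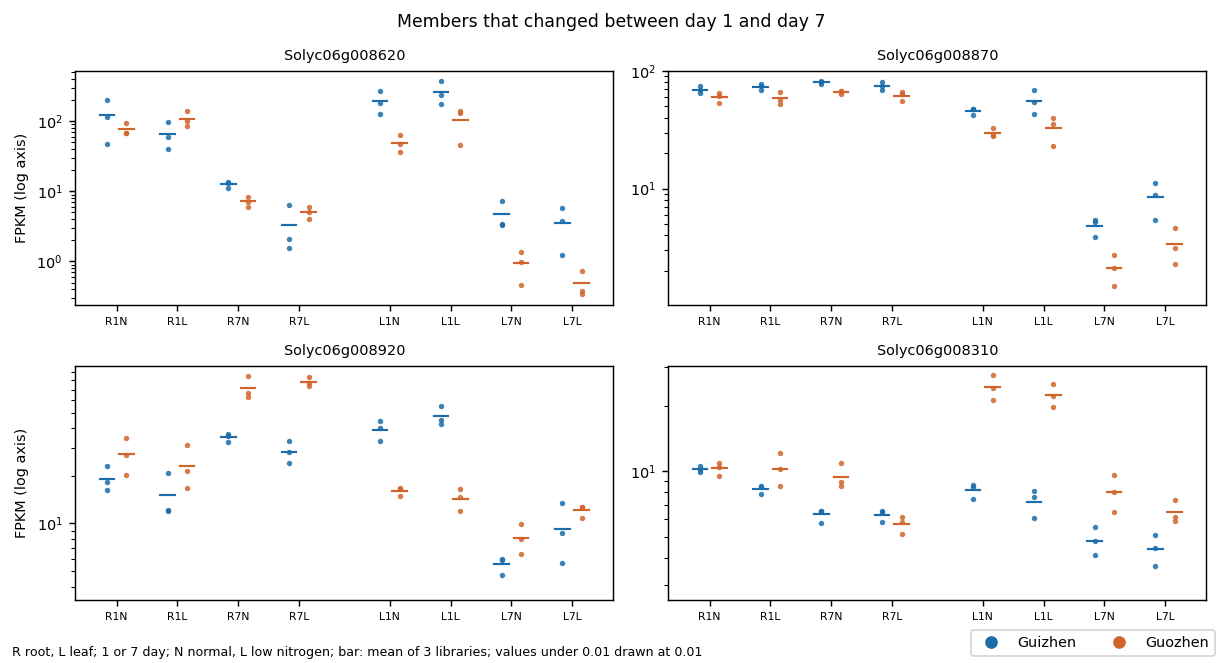
FPKM (log axis) of 4 members with large changes between day 1 and day 7, with 1 point per library and a bar at the mean of 3 libraries, Guizhen in blue and Guozhen in orange. Solyc06g008620 is lower at day 7 in root (R) and leaf (L), Solyc06g008870 in leaf, Solyc06g008920 is higher at day 7 in root and lower in leaf, and Solyc06g008310 is highest in Guozhen leaf at day 1.

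The question of the study, the response to low nitrogen, was asked of the members within each cultivar, organ and day. At day 1 limma called none. Of 44 members in root, 3 in Guizhen and 2 in Guozhen had an unadjusted p below 0.05, and of 47 in leaf, 2 in Guizhen and 2 in Guozhen. All genes were not counted at that unadjusted threshold, so nothing is read from these counts. At adjusted p below 0.05 the background at day 1 was also low. It was 0.00979% of genes in Guizhen root, 0.0391% in Guozhen root, 0.116% in Guizhen leaf and 0.0606% in Guozhen leaf. Leaving out Guozhen leaf day 1 low nitrogen replicate 3 gave 2 member calls there, and moved the calls over all 19815 genes from 12 to 1969, so that the low background rests on that library.

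At day 7 members passed in all 4 contrasts. In Guizhen root, 3 members passed (2 higher and 1 lower at low nitrogen), beside 7.92% of all genes (4.43% higher, 3.49% lower). In Guozhen root, 12 passed (6 higher, 6 lower), beside 27.6% of all genes (12.8% higher, 14.8% lower). In Guizhen leaf, 14 passed (12 higher, 2 lower), beside 16.6% of all genes (11.7% higher, 4.92% lower). In Guozhen leaf, 10 passed (7 higher, 3 lower), beside 17.7% of all genes (12.3% higher, 5.47% lower). As shares of the members tested, these were 6.82%, 27.3%, 29.8% and 21.3%. In both roots the share was close to that of all genes. Over the 4 contrasts, 28 of the 48 members passed at least 1 test and 20 passed none. That count was not made over all genes, so nothing is read from it. The median of all genes was 0.16 in Guizhen leaf and 0.14 in Guozhen leaf. With median-of-ratios scaling it was 0.03 and 0.02, and the leaf calls became 6 higher with 3 lower for Guizhen, and 2 higher with 6 lower for Guozhen. That scaling also moved the share of higher calls among all called genes from 70.4% to 38.4% in Guizhen leaf and from 69.2% to 40.9% in Guozhen leaf, so that no direction is read from the leaf counts.

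Solyc06g008890 rose at low nitrogen in the roots of both cultivars at day 7. In Guizhen root it had 4.82, 4.12 and 4.33 FPKM at normal nitrogen and 9.93, 6.83 and 8.02 at low nitrogen. In Guozhen root it had 4.30, 4.37 and 4.35 at normal nitrogen and 6.24, 8.86 and 9.60 at low nitrogen. Low libraries were above normal libraries without overlap in both. Guizhen root rose by 0.76 (SE 0.15, limma adjusted p 0.00515) and Guozhen root by 0.77 (SE 0.15, limma adjusted p 0.00113). It is also a member whose cultivars overlapped in every combination. Solyc06g008320, in the quiet stretch at the start of the run, rose by 0.31 (SE 0.09, limma adjusted p 0.0406) in Guizhen root and by 0.26 (SE 0.09, limma adjusted p 0.0409) in Guozhen root. The Guizhen call was lost when any of 4 single libraries was left out, namely low nitrogen replicates 1 and 2 and normal nitrogen replicates 2 and 3.

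Other root responses passed in a single cultivar. Solyc06g008560 in Guozhen root had 1.08, 1.70 and 0.787 FPKM at normal nitrogen and 4.58, 3.28 and 2.98 at low nitrogen, a rise of 1.08 (SE 0.20, limma adjusted p 0.000882). Its Guizhen root values were 1.33, 1.40 and 1.22 at normal and 1.49, 1.84 and 1.51 at low nitrogen. Solyc06g008750 in Guozhen root had 4.65, 4.04 and 7.74 FPKM at normal nitrogen and 0.745, 0.879 and 0.844 at low nitrogen, and it fell by 1.79 (SE 0.38, limma adjusted p 0.00215). In Guizhen root it had 4.74, 9.32 and 5.40 at normal and 1.37, 1.82 and 4.98 at low nitrogen, where the groups overlapped. Solyc06g008310 fell in Guozhen root by 0.63 (SE 0.11, limma adjusted p 0.000549), from 10.9, 8.89 and 8.52 FPKM to 5.14, 5.80 and 6.13. Solyc06g008850 fell there by 0.58 (SE 0.11, limma adjusted p 0.00118) and Solyc06g008330 rose by 0.47 (SE 0.12, limma adjusted p 0.00703).

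Solyc06g008620 passed in Guizhen root, where it had 11.2, 13.2 and 13.4 FPKM at normal nitrogen and 2.099, 1.54 and 6.39 at low nitrogen. It fell by 1.81 (SE 0.42, limma adjusted p 0.0132). The call was lost without low nitrogen replicate 1 (adjusted p 0.0779), without low nitrogen replicate 2 (0.0949) or without normal nitrogen replicate 2 (0.0532). In Guozhen root the values were 7.14, 5.99 and 8.43 at normal and 4.03, 6.003 and 5.02 at low nitrogen, which overlapped.

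Solyc06g008760 had the largest nitrogen response in leaf, in both cultivars. At day 7, Guizhen leaf had 35.2, 38.5 and 28.8 FPKM at normal nitrogen and 164, 109 and 55.6 at low nitrogen. Guozhen leaf had 62.9, 29.2 and 39.4 at normal nitrogen and 87.7, 138 and 176 at low nitrogen. The groups did not overlap, but the low nitrogen libraries spread widely. Guizhen leaf rose by 1.53 (SE 0.36, limma adjusted p 0.0121) and Guozhen leaf by 1.60 (SE 0.36, limma adjusted p 0.00651). The Guizhen call was lost without low nitrogen replicate 1 (adjusted p 0.0738) or replicate 2 (0.0571). Solyc06g008740, which rose by 0.74 (SE 0.16, limma adjusted p 0.00861) in Guizhen leaf and by 0.55 (SE 0.16, limma adjusted p 0.0232) in Guozhen leaf, and Solyc06g008700, which fell by 0.65 (SE 0.18, limma adjusted p 0.0216) and by 0.77 (SE 0.18, limma adjusted p 0.00755), were also called in both leaves. For Solyc06g008740 the Guizhen call was lost without low nitrogen replicate 2, and the Guozhen call without low nitrogen replicate 2, without normal nitrogen replicate 1 or 2, and under median-of-ratios scaling. For Solyc06g008700 the Guizhen call was lost without low nitrogen replicate 2 or normal nitrogen replicate 1 or 3, and the Guozhen call without low nitrogen replicate 2.

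**Figure D5:**
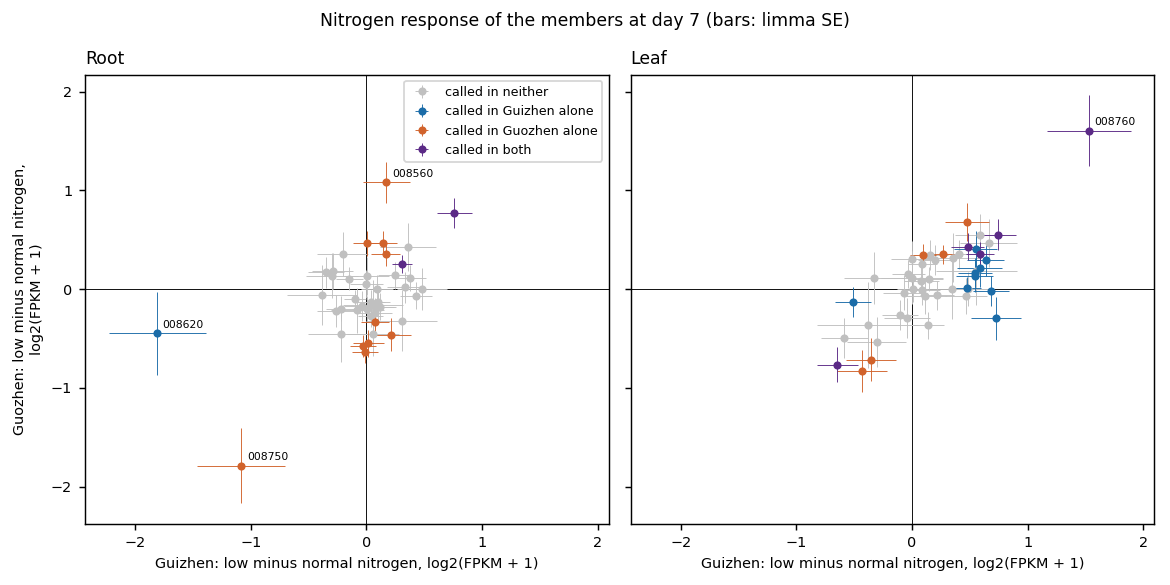
Change at low nitrogen at day 7 (low minus normal, log2(FPKM + 1)) of each member tested in root (left) and leaf (right), Guizhen on the x axis and Guozhen on the y axis, with bars of 1 limma SE and colours for the calls in each cultivar. Solyc06g008760 stands at 1.53 and 1.60 in leaf. In root, 2 members were called in both cultivars, and in leaf 5, with no such count made over all genes.

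The day 7 calls leaned on single libraries and on the shared estimate of spread, among the members as among all genes. In Guizhen root the count of 3 became 1 without low nitrogen replicate 1 or 2 and 7 without low nitrogen replicate 3, while the calls over all genes went from 1618 to 503, 457 and 2977. In Guizhen leaf the count of 14 became 5 when low nitrogen replicate 1 was left out, 1 when replicate 2 was, and 6, 8 and 7 without normal nitrogen replicates 1, 2 and 3. Over all genes those calls went from 3289 to 793, 619, 1497, 1780 and 1483. In Guozhen leaf the count of 10 became 1 and 5 without low nitrogen replicates 2 and 3, and 6 and 2 without normal nitrogen replicates 1 and 2. Over all genes those went from 3515 to 1180, 1915, 2634 and 1785. When the fit held only the 6 libraries compared, 6 calls stood in Guozhen root and 0 in each of the other 3 contrasts. Over all genes that fit called 3597 in Guozhen root, 18 in Guizhen root, 2 in Guizhen leaf and 25 in Guozhen leaf.

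Whether the cultivars differed in their nitrogen response was examined by the interaction of cultivar and nitrogen level. This contrast is a difference between the cultivar gaps that chose the run, so its values are given as a description and support nothing. Limma called 0 members in root at day 1 (background 0.0734%), root at day 7 (0.387%), leaf at day 1 (0.0858%) and leaf at day 7 (0%). At an unadjusted p below 0.05 there were 4, 10, 1 and 4 members, a threshold at which all genes were not counted. The count was also 0 in each alternative fit. The smallest p was that of Solyc06g008310 in root at day 7, where the Guozhen response minus the Guizhen response was -0.63 (SE 0.16, limma adjusted p 0.0687). Whether a response that passed in a single cultivar differs between the cultivars is left undecided, because this contrast cannot decide it.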

How the data were processed

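Libraries were prepared from root and leaf RNA with kits from Tiangen (extraction) and NEB (library), per the labels' protocols. The values are FPKM as deposited by the authors in 1 table of 48 libraries. HISAT2 and StringTie were used, per the submitters' processing notes. Tool versions, genome build and gene annotation are not given in the sources used here. Groups came from the sample titles.

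Values were transformed to log2(FPKM + 1), a scale that understates changes of low genes. A gene was kept where 3 or more libraries reached 1 FPKM, 20435 in root, 19815 in leaf and 22117 over both organs. The 24 libraries of an organ (48 for the organ comparison) entered a limma fit (version 3.58.1, run under R 4.3.3) that has 1 mean per group and lets the variance follow the mean level. P-values were adjusted over all genes tested by the Benjamini-Hochberg method, and an adjusted p below 0.05 was called. SE is that of limma. In data simulated like Guizhen at day 7, changes were placed only in the more abundant genes, above a fixed mean level, with independent normal noise. Changes of 1 and 2 on the log2 scale were found in 74% and 97% of cases in root (20435 genes, 11 false of 182 calls). In leaf they were found in 62% and 95% (19815 genes, 6 false of 163). Many members lay below that level, and these rates do not apply to them.

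The members and lists were chosen with earlier results of these data known. Named were members without cultivar overlap in all 8 combinations; up to 10 more without overlap in all 4 of an organ; up to 3 rises and 3 falls per tested contrast; the first and last member and the 3 loci on either side; the 2 members nearest the threshold and the 2 loci just below it; and the 5 most abundant per organ. A few further members are named to complete small counts, chosen after their values were seen. Alternatives were a pseudocount of 0.1, median-of-ratios scaling, no filter, the replicate number as a block, fits of only the libraries compared, and leaving out each library. The 41476 entries of the RefSeq table matched no identifier of the deposited table, and no sequences are shown. Plots come from matplotlib 3.10.9 under Python 3.11.15.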

Additional observations from a re-analysis of the deposited data

How the results depend on the processing

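Reads per library are unknown, so that the counting error of levels near 0 FPKM could not be given. Differences of low loci depend on the pseudocount. With a pseudocount of 0.1 the separated members rose from 12 to 19 in leaf at day 1 and low nitrogen and from 9 to 20 in leaf at day 7 and normal nitrogen, and contained all of the first 12 and 9. Over all genes the counts rose alike, from 348 to 654 and from 235 to 601. With median-of-ratios scaling the nitrogen calls in Guizhen leaf at day 7 fell from 14 to 9. With only the libraries compared they were 0 in Guizhen root, 6 in Guozhen root, 0 in Guizhen leaf and 0 in Guozhen leaf. The cause of these shifts was not tested. The last fits also held fewer samples.

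Leaving out each library in turn gave 10 to 12, 8 to 10, 10 to 12 and 9 to 12 separated members in root (day 1 normal, day 1 low, day 7 normal, day 7 low), and 12 to 15, 12 to 13, 8 to 12 and 11 to 13 in leaf. Nitrogen calls at day 7 ran from 1 to 7 in Guizhen root, 8 to 11 in Guozhen root, 1 to 18 in Guizhen leaf and 1 to 8 in Guozhen leaf, and at day 1 from 0 to 2 in Guozhen leaf and 0 to 0 in the other contrasts. Day calls ran from 14 to 16 and 12 to 20 in Guizhen and Guozhen root, and 25 to 28 and 23 to 26 in leaf. Organ calls ran from 29 to 33 in Guizhen and 30 to 32 in Guozhen. Interaction calls were 0 throughout. The mean root difference between cultivars of Solyc06g008770 was -0.07808, and became 0.03279 without replicate 1 of every group and -0.1387 without replicate 3, settings chosen after seeing the data. The other 113 such values of named members kept their sign. Of the named changes tested, 293 fits with a library left out kept the call and 43 did not.

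Same-numbered libraries did not clearly deviate together (residual correlations from -0.204 to 0.181, with no comparison of 14 above 0.1 throughout). The samples were treated as unpaired, but with 3 libraries per group these correlations cannot exclude a pairing. With the replicate block the nitrogen calls at day 7 were 2, 9, 13 and 8 (Guizhen root, Guozhen root, Guizhen leaf, Guozhen leaf), the day calls 17, 17, 25 and 25, and the organ calls 32 and 35. Among the 56 changes named by the rule for tested contrasts, the block ended 1 call, Solyc06g008320 in Guizhen root. For other single calls the block was read as counts alone.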

Other observations

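Over the 16 group means, the members were mostly not alike in their pattern. The median Pearson r over 1128 pairs of members on the log2(FPKM + 1) scale was 0.11, and it was 0.103 for neighbours in locus order. The points share their libraries and the cultivar gap that chose the run. The pair Solyc06g008770 and Solyc06g008800, which stand 3 members apart, had an r of 0.961 over the group means and of 0.826 over the deviations of single libraries from their group mean. Solyc06g008710 and Solyc06g008810 had an r of 0.964 over the group means and of 0.123 over those deviations.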
